A study of Mus musculus with 24 samples.

Results

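Muscle tissues that were exercised with light at 10 Hz were compared directly with tissues exercised at 1 Hz. Both groups were grown from C2C12, an immortal line of mouse myoblasts that fuse and contract in culture, of the genotype ChR2::tdTomato. These cells carry channelrhodopsin, an ion channel that opens in blue light and so lets light pulses trigger contraction. Each group held 6 biological replicates that were exercised with light pulses for 60 min a day during differentiation. The medium held horse serum and IGF-1, and the 1 difference stated between the groups is the pulse frequency. The question is what a higher pulse frequency changes when the daily session is equally long. The pulse width of the sessions is not given in the sources used here, so the total light may differ. How often the tissues contracted in the sessions is not given either. The 12 libraries are part of the 24 of the 60-min experiment, whose unstimulated control (6 libraries, 0 Hz) is shown beside them here. The 4 Hz libraries (6) entered the statistical fit so that all groups share 1 estimate of the spread. All tissues come from 1 engineered line in monolayers on fibrin gel, without nerves or vessels, and the promoter that drives the channel is not given in the sources used here.

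A muscle fibre is built in steps. Myod1 and Myf5 are transcription factors that commit a cell to the muscle lineage, Pax7 marks the satellite cell that stays in reserve, and Myog drives the exit from the cell cycle and fusion into myotubes. In working muscle, calcium released at each contraction acts through calcineurin, immediate early genes and energy sensors, and the FOXO factors turn on genes of protein breakdown when activity or growth signals are low.

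RNA was measured by bulk sequencing of the whole tissue, in which fewer cells of a type and less RNA per cell cannot be told apart. The deposited table lists 56941 genes, of which 13315 had enough counts to be tested. Levels are given as CPM, counts relative to the library total, scaled between libraries by the TMM method. Where 3 values are given for a group, they are its lowest library, its median and its highest library, with n = 6. The log2(fold change) is 10 Hz minus 1 Hz with its standard error (SE), and the adjusted p comes from edgeR's quasi-likelihood test over all genes tested, with Benjamini-Hochberg adjustment. Genes are called changed when their adjusted p was under 0.05 and their log2(fold change) above 0.5 or below -0.5, and "rose" and "fell" are used at 10 Hz relative to 1 Hz for such genes.

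Total counts ran from 8546524 to 18159144 at 1 Hz (median 10488375) and from 8052369 to 11985438 at 10 Hz (median 9587933). Replicates varied around their group mean with a typical biological coefficient of variation of 14.8%. The 1 Hz libraries were not alike. Replicates 4 and 6 had 3.97% and 4.87% of their counts in mitochondrial genes, where the other 1 Hz libraries had 1.52% to 1.69% and the 10 Hz libraries 1.44% to 2.56%. The same pair had 7.46% and 7.81% in ribosomal protein genes, against 4.65% to 5.85% at 10 Hz, and relatively few counts in long genes. Such values were not limited to this pair. The 4 Hz libraries of the same fit had 0.545% to 8.90% in mitochondrial genes and 5.77% to 8.01% in ribosomal protein genes. Calls of genes named here that were lost without this pair are given beside the results. RNAs that lack a poly(A) tail, such as Rn7sk, Rmrp and Rpph1, summed to 50.1, 100.6 and 183 CPM at 1 Hz, to 18.7, 29.2 and 46.6 CPM at 10 Hz, and to 11.8, 20.0 and 58.4 CPM in the controls. The 1 Hz and 10 Hz ranges of this sum do not overlap, and 3 of the 5 such genes tested were lower at 10 Hz with all libraries and 0 without 1 Hz replicates 4 and 6 (edgeR), while the median log2(fold change) of the 5 was -2.22 and -1.96. The labels state that samples with little RNA went through ribodepletion in place of poly(A) selection and do not name them, so library preparation and frequency cannot be told apart for such RNAs, and their part in the other results was not tested.

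**Figure D1:**
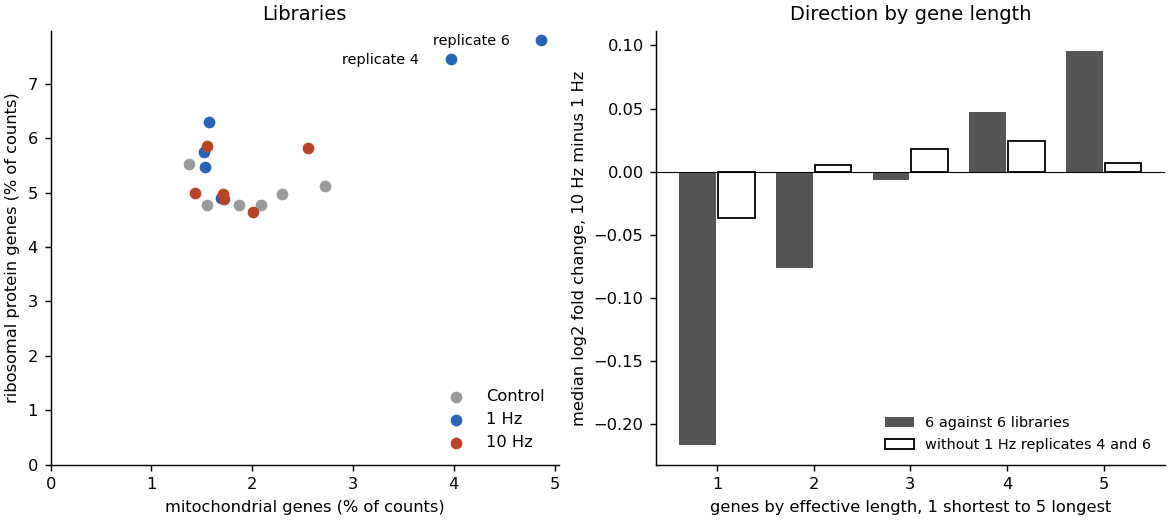
The left panel plots libraries by the percent of their counts in mitochondrial genes (x) and ribosomal protein genes (y), with controls in grey, 1 Hz in blue and 10 Hz in red. The 4 Hz libraries are not drawn. The right panel gives the median log2(fold change), 10 Hz minus 1 Hz, of genes in 5 equal bins of effective length. The 1 Hz replicates 4 and 6 sit apart at the upper right, and the trend from -0.22 in the shortest genes to 0.10 in the longest is reduced to between -0.04 and 0.02 without them.

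Between the frequencies, 1443 genes changed. At 10 Hz 779 genes were higher, 5.85% of those tested, and 664 were lower, 4.99% of those tested. Most changes were moderate, with a median absolute log2(fold change) of 0.69, and 93 higher and 99 lower genes passed 1 on that scale. In 1025 genes, or 7.7% of those tested, all 6 libraries at 10 Hz lay on 1 side of all 6 at 1 Hz, and 535 of these were also changed. Of the higher genes 749 are protein coding, 15 (1.93%) are long noncoding RNAs and 11 are pseudogenes. The lower genes include 554 protein-coding genes, 67 (10.1%) long noncoding RNAs and 33 pseudogenes. Among all 13315 genes tested 4.54% are long noncoding RNAs and 528 genes are pseudogenes.

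Without 1 Hz replicates 4 and 6, 590 genes (4.37% of 13489) were higher and 355 (2.63%) lower, and 526 and 265 of them were called in the same direction with all libraries. The balance of directions also depended on the unit. On the deposited TPM scale, log2(TPM + 1) tested with limma, 1212 genes (9.03% of 13422) were higher and 133 (0.991%) lower, so that 90.1% of calls were higher against 54.0% on the TMM scale. All genes together had a median of 0.13 on TPM and -0.04 with TMM scaling, a shift of 0.17. Of the 121 named genes with a value on both scales, Myh8 and Tcf4 differed in sign.

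**Figure D2:**
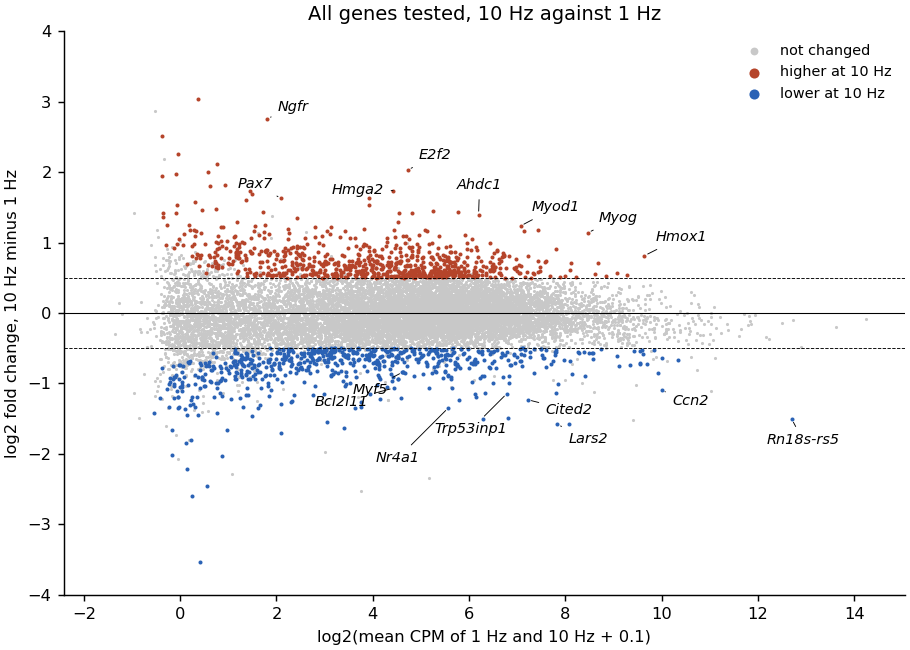
Each point is 1 of the genes tested, with the log2 of its mean CPM over both groups (plus 0.1) on the x axis and its log2(fold change), 10 Hz minus 1 Hz, on the y axis, cut at an absolute value of 4, which 5 genes exceed. Red points are the 779 genes counted as higher at 10 Hz, blue points the 664 lower, and dashed lines mark 0.5 and -0.5. Myod1, Myog and Ahdc1 stand above most genes of similar level, and Cited2, Trp53inp1 and Rn18s-rs5 below.

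On the first principal component of the 500 most variable genes over the 12 libraries, which held 22.7% of the variance, the mean score was 8.78 ± 10.7 (SD, n = 6) at 10 Hz and -8.78 ± 8.78 at 1 Hz. The difference of 17.6 had a two-sided exact permutation p of 0.015 over 924 splits, where 0.0022 is the smallest p possible. The groups overlapped on this axis: 1 Hz replicate 5 scored 6.90, while 10 Hz replicates 3 and 5 scored -6.49 and -1.79. Long-gene balance is the median log2 deviation of the longest bin of genes minus that of the shortest. It was 0.30 in 1 Hz replicate 5 and -0.12 and -0.14 in 10 Hz replicates 3 and 5. In 1 Hz replicates 4 and 6 it was -0.67 and -0.55, with scores of -18.7 and -14.8. 1 Hz replicate 1, at 0.24, scored -7.35. Without 1 Hz replicate 4 or 6 the difference was 16.4 or 16.5 (exact permutation p 0.03 each). The part of the balance in this was not tested.

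The most regular differences were in the regulators of the muscle lineage. Of 14 tested regulators 5 rose, among them Myod1, Myog, Pax7 and Mef2a, and Myf5 and Myf6 fell, with a median log2(fold change) of 0.15 for the list against -0.04 for all genes. Pax3, with 0 CPM in every library, was under the filter on low counts. Without 1 Hz replicates 4 and 6 there were also 5 higher and 2 lower, with Six4 (0.51) past the fold threshold in place of Mef2a (0.45, adjusted p 0.00095).

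Myod1, the factor that opens muscle genes, had 68.5, 80.8 and 91.4 CPM at 1 Hz and 170.3, 189.8 and 207 CPM at 10 Hz. Every library at 10 Hz lay above every library at 1 Hz. The log2(fold change) was 1.24 (SE 0.089, adjusted p 3.2e-10), a level 2.36 times as high. The gene lies on chromosome 7 of GRCm39, from 46025870 to 46028526 on the plus strand.

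Myog (myogenin), which carries committed myoblasts into differentiation, is a gene of chromosome 1 (134217707 to 134220287, plus strand, GRCm39). Its window around the transcription start is printed because it was the transcription factor gene of the muscle list with the smallest p. The window, from RefSeq on build GRCm38.p6 (chr1:134289754-134290053, plus strand), runs from 250 bases before to 50 bases after the start, and capitals mark the letters CANNTG, the E-box core that factors such as MyoD and myogenin can bind.
Myog: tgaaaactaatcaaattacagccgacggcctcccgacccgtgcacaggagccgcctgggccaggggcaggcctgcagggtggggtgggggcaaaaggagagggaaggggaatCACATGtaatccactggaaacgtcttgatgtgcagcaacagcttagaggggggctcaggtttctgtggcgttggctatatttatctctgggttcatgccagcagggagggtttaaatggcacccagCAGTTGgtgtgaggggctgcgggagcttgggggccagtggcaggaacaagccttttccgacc
The window holds 2 such matches. The letters are common: 72.3% of all 32851 windows of this length hold at least 1 (both strands read, since the core is its own reverse complement), as do 67.4% of the higher genes with a window, 67.2% of the lower and 67.2% of those not changed. The presence of an E-box therefore did not separate these sets.

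Myog counts were 182, 224 and 242 CPM at 1 Hz and 438, 495 and 507 CPM at 10 Hz. The groups were far apart, and every 10 Hz library was above every 1 Hz library. The log2(fold change) was 1.14 (SE 0.073, adjusted p 3.3e-11), and it was 1.21 without 1 Hz replicates 4 and 6.

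Pax7, the satellite cell factor, was a rare transcript, with 1.06, 1.97 and 3.21 CPM at 1 Hz and 5.82, 6.08 and 7.11 CPM at 10 Hz. It showed no overlap between groups and a log2(fold change) of 1.63 (SE 0.18, adjusted p 5.6e-07). Mef2a, a partner of the MyoD family at muscle promoters, went from 179, 206 and 239 to 258, 303 and 324 CPM (log2(fold change) 0.53, SE 0.086, adjusted p 7.4e-05), again without overlap.

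Myf5 and Myf6 moved the opposite way to Myod1, their relative. For Myf5, the counts were 24.9, 30.2 and 39.1 CPM at 1 Hz and 14.5, 16.8 and 24.6 CPM at 10 Hz. The groups touched without overlapping, and the log2(fold change) was -0.84 (SE 0.13, adjusted p 3.1e-05). Myf6 (MRF4), a late factor of mature fibres, was near the detection limit, with 1.88, 2.79 and 5.61 CPM against 1.02, 1.38 and 1.75 CPM (log2(fold change) -1.21, SE 0.27, adjusted p 0.0015). It too was lower in every 10 Hz library. Myf5 and Myf6 are neighbours on chromosome 10 of GRCm39, at 107318769 to 107321995 and 107328712 to 107330656, both on the minus strand.

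The other regulators stayed under the threshold on fold change. Six4 (0.49, adjusted p 0.0024), Eya1 (-0.36, adjusted p 0.024) and Mef2c (-0.33, adjusted p 0.041) passed on p alone, and Mef2c did not do so without 1 Hz replicates 4 and 6 (adjusted p 0.36). Mef2d, Tcf12, Eya4 and Tcf4, the latter a broadly expressed E-protein, had a log2(fold change) between -0.07 and 0.18 with adjusted p of 0.13 to 0.67.

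**Figure D3:**
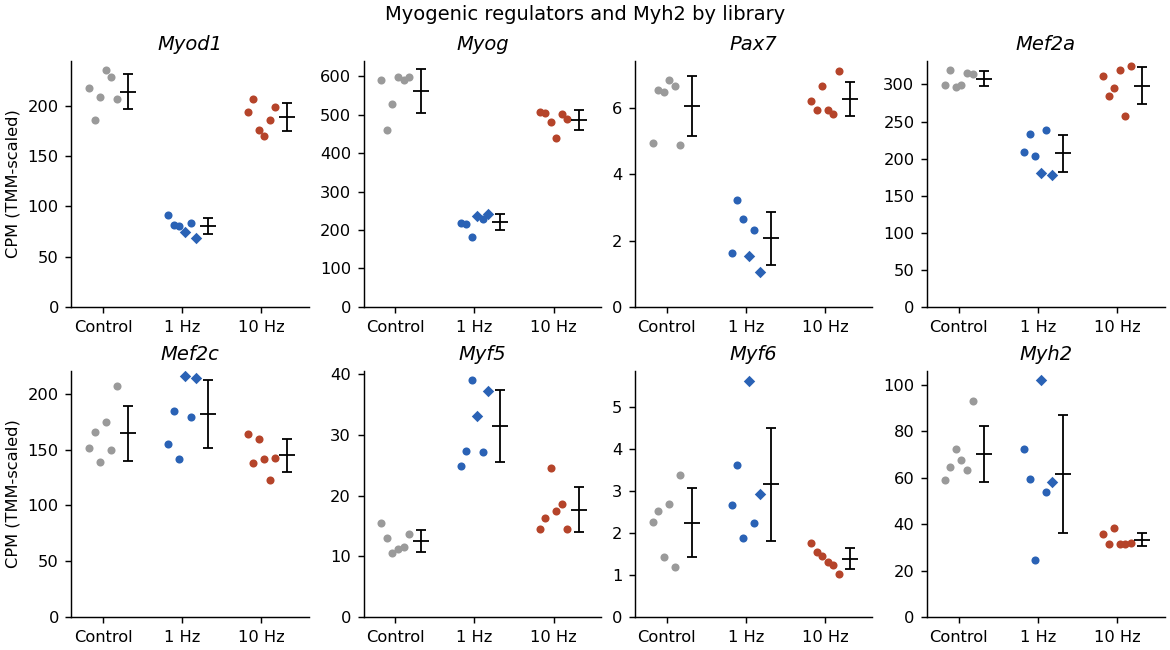
CPM in each library of the unstimulated control (grey), 1 Hz (blue) and 10 Hz (red) for 7 muscle regulators and Myh2, each panel on its own scale from 0. Diamonds are 1 Hz replicates 4 and 6, and bars give the mean and SD of 6 libraries. Myod1, Myog, Pax7 and Mef2a are lower at 1 Hz than in the other groups drawn, Myf5 is higher there, and Myh2 has its lowest mean at 10 Hz and a wide spread at 1 Hz.

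In the plot of muscle regulators, the 10 Hz libraries lay close to the unstimulated controls for most of these genes. Each comparison with the controls has its own values in the same fit, and it shares its 1 Hz or 10 Hz libraries with the direct comparison, so the values do not add evidence to it. Relative to the controls, Mef2a had a log2(fold change) of -0.57 at 1 Hz (adjusted p 1.5e-05) against -0.04 at 10 Hz (adjusted p 0.97). The medians over the muscle regulators were -0.13 at 1 Hz and -0.02 at 10 Hz.

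Myosin heavy chains, the motor proteins whose isoforms define fibre types, differed less. Of 8 genes tested none rose and Myh2 and Myh7b fell, and the list's median was -0.25. Myh2, the fast oxidative type 2a isoform, had 24.6, 58.8 and 102 CPM at 1 Hz and 31.3, 31.7 and 38.1 CPM at 10 Hz. The 1 Hz libraries were widely spread, and replicate 3 was the only one of them below the 10 Hz range, the other 5 lying above it. The log2(fold change) was -0.89 (SE 0.20, adjusted p 0.0018). Myh7b, a slow-tonic isoform that shares its locus with a muscle microRNA, went from 18.03, 26.7 and 38.4 to 16.1, 17.9 and 18.9 CPM (-0.62, adjusted p 0.00031), with overlap. In the fit lacking 1 Hz replicates 4 and 6, Myh7b was at -0.45 and Myh2 was the 1 lower gene of the list. The log2(fold change) of the adult fast genes Myh1 and Myh4 was -0.26 (adjusted p 0.076) and -0.23 (adjusted p 0.22), that of slow Myh7 -0.22 (adjusted p 0.16), cardiac Myh6 -0.28 (adjusted p 0.089), and neonatal Myh8 -0.17 (adjusted p 0.30). Embryonic Myh3 was at 0.30 (adjusted p 0.12).

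A measure that scaling cannot move is the share of each gene in the summed TPM of Myh1, Myh2, Myh3, Myh4, Myh7 and Myh8. Embryonic Myh3 made up 10.6%, 13.5% and 21.8% at 1 Hz and 18.3%, 19.9% and 21.9% at 10 Hz, with means of 14.8% ± 4.30 and 20.1% ± 1.74 (SD, n = 6). The difference of 5.24 percentage points had an exact permutation p of 0.022, or 0.065 after adjustment over the 6 genes. Myh2 made up 3.18% ± 0.906 at 1 Hz and 2.01% ± 0.242 at 10 Hz (exact permutation p 0.017, adjusted 0.065). Neither share passed after adjustment. In 1 Hz replicate 3 Myh3 was high and Myh2 low. Without that library the differences were 6.63 and -1.49 points, both with an adjusted exact permutation p of 0.013. On leaving out any other single library, the adjusted exact permutation p of both was 0.069 to 0.13. The shares of Myh1, Myh4, Myh7 and Myh8 differed by -2.82 to 0.17 points (adjusted p 0.38 to 0.84). The summed TPM of the 6 genes covered 314 to 543 at 1 Hz and 380 to 494 at 10 Hz, so the groups overlapped. Estimated counts can divide the reads of these near-identical paralogs between them, which adds uncertainty to each share.

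Other contractile genes leaned lower at 10 Hz. Of 59 sarcomere genes 7 fell and 0 rose (median -0.18), namely Cmya5, Mybpc2, Myot, Lmod2, Smpx, Tmod4 and Xirp2. This is 11.9% of the list, where 10.8% of all genes tested changed and 4.99% were lower. Without 1 Hz replicates 4 and 6 the median was -0.03 and Cmya5 alone was counted as lower, the others being at -0.56 (Xirp2, adjusted p 0.095) to -0.16 (Smpx, adjusted p 0.48). Cmya5, which encodes myospryn, a large protein at the Z-disc, went from 7.19, 13.2 and 21.04 to 5.70, 7.03 and 8.13 CPM (-1.04, adjusted p 0.00018). It stayed at -0.95 (adjusted p 0.0019) without those libraries. Mybph, a myosin-binding protein, was at 587, 766 and 839 CPM and at 914, 953 and 1152 CPM, with every 10 Hz library higher but a log2(fold change) of 0.40 that did not reach the threshold (adjusted p 0.00081).

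In excitation-contraction coupling, the link between membrane depolarization and calcium release, 2 of 26 genes fell (median -0.18). The share changed, 7.69%, was under the 10.8% over all genes tested, of which 4.99% were lower. Kcnj2, the inward rectifier that sets the resting potential, went from 4.11, 5.43 and 5.85 to 2.14, 2.99 and 5.89 CPM (-0.66, adjusted p 0.0088), where a single 10 Hz library, replicate 3, lay above the 1 Hz range. Casq1, the calcium store protein of fast fibres, was at -0.64 (adjusted p 0.0051) and at -0.30 (adjusted p 0.096) without 1 Hz replicates 4 and 6. Asph, which encodes junctional proteins of the calcium store, was lower in every 10 Hz library, but by only -0.32 (adjusted p 0.00059).

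At the neuromuscular synapse 15 genes were tested. Colq, which anchors acetylcholinesterase, fell (-0.74, adjusted p 0.0014) and was at -0.46 (adjusted p 0.036) without 1 Hz replicates 4 and 6. Dok7, an activator of the MuSK receptor, was higher in every 10 Hz library (0.39, adjusted p 0.0014) but under the threshold. Of 19 dystrophin complex genes none was counted as changed, though 6 passed on p.

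Genes of myoblast adhesion and fusion leaned the other way, with 4 of 15 higher and 0 lower (median 0.16, and 0.17 without 1 Hz replicates 4 and 6). Cdh15 (M-cadherin), an adhesion protein of myoblasts and satellite cells, rose from 52.1, 63.8 and 83.0 to 113.5, 120.9 and 137 CPM (0.89, SE 0.11, adjusted p 1.7e-06). Cdh2 (N-cadherin) rose from 68.5, 82.6 and 88.2 to 116, 120.8 and 124 CPM (0.57, adjusted p 2.5e-06). Both cadherins were without overlap between the groups. Ehd2, a membrane-bending protein at caveolae, rose by 0.76 (adjusted p 8.6e-05) and Kirrel, an immunoglobulin adhesion protein, by 0.53 (adjusted p 0.017), which was 0.33 (adjusted p 0.13) without the pair.

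Ranked by p, the first genes to have risen without overlap were Ahdc1, Myog, Ubtf, Myod1, Cdc42ep2 and Baiap2. Ahdc1, a DNA-binding protein gene on chromosome 4, had 32.2, 40.9 and 51.3 CPM at 1 Hz and 90.7, 107.9 and 115 CPM at 10 Hz. Its log2(fold change) of 1.40 (SE 0.087, adjusted p 3.3e-11) was 1.29 without 1 Hz replicates 4 and 6. Ubtf, the factor that activates transcription of ribosomal RNA genes by RNA polymerase I, rose from 73.6, 86.3 and 100.6 to 173, 188 and 223 CPM (1.17, SE 0.080, adjusted p 1.2e-10). Cdc42ep2 and Baiap2 both act in the shaping of actin downstream of the small GTPase Cdc42, and they rose by 0.99 (adjusted p 3.6e-09) and 0.80 (adjusted p 8e-09).

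Among the genes that fell without overlap, Cited2, Trp53inp1, Klf7, Sgms1, Rnf19a and Bcl2l11 had the smallest p. Cited2, a transcriptional co-regulator that competes with HIF-1 for its co-activators, had 184, 212 and 236 CPM at 1 Hz and 73.9, 86.9 and 105 CPM at 10 Hz. The log2(fold change) was -1.23 (SE 0.10, adjusted p 4e-09). Klf7, a zinc-finger factor, went from 62.9, 68.7 and 85.6 to 37.8, 41.9 and 43.8 CPM (-0.79, adjusted p 9.5e-08). Sgms1, a sphingomyelin synthase, fell by 0.80 on the log2 scale (adjusted p 1.9e-07) and Rnf19a, a ubiquitin ligase, by 0.59 (adjusted p 3.6e-07). For all 6, the call was also made without 1 Hz replicates 4 and 6. On the TPM scale with limma, Bcl2l11 (-0.51, adjusted p 0.051) and Rnf19a (-0.42, adjusted p 0.017) were not called, while Cited2, Klf7 and Sgms1 were.

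The largest folds without overlap were in rarer transcripts for the higher genes. Ngfr, the p75 neurotrophin receptor, which myoblasts carry, went from 0.366, 0.958 and 1.56 to 3.89, 5.16 and 8.47 CPM (log2(fold change) 2.76, SE 0.29, adjusted p 2e-07). Dnm3os, the noncoding host of the miR-199a and miR-214 genes, went from 0, 0.701 and 0.925 to 1.79, 2.70 and 3.10 CPM (2.12, adjusted p 0.00011), and it lies within Dnm3 on the opposite strand. E2f2, a cell cycle factor, rose from 4.51, 9.47 and 18.9 to 31.1, 40.7 and 58.1 CPM (2.03, SE 0.24, adjusted p 3.6e-06). Hmga2, a chromatin protein of immature and proliferating cells, rose from 6.91, 10.2 and 12.9 to 25.1, 32.8 and 44.2 CPM (1.74, adjusted p 7.5e-08), and the death-domain receptor gene Tnfrsf25 by 1.74 (adjusted p 1.9e-07). All 5 were also counted as higher without 1 Hz replicates 4 and 6.

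On the lower side, the largest folds were those of Nipal1, Lars2, Arid5b, Rn18s-rs5 and Otud1. Rn18s-rs5 is a ribosomal RNA repeat and not a messenger RNA. It had 5137, 9215 and 15495 CPM at 1 Hz and 2529, 3384 and 4596 CPM at 10 Hz (-1.51, adjusted p 0.021). Lars2, a mitochondrial tRNA synthetase gene, moved with it (-1.58, adjusted p 0.032), and without 1 Hz replicates 4 and 6 the values were -1.39 (Rn18s-rs5, adjusted p 0.068) and -1.54 (Lars2, adjusted p 0.078), of similar size but past the threshold on p in neither. Lars2 followed Rn18s-rs5 in other groups too. Both had their highest value of the group in control replicate 1 (305 and 7611 CPM) and in 4 Hz replicate 4 (1094 and 29401 CPM). For the ribosomal RNA and for Lars2, as for Rn7sk, library preparation and frequency cannot be told apart. Arid5b, a chromatin regulator of fat and liver metabolism, went from 85.1, 121 and 134 to 15.1, 41.2 and 60.8 CPM (-1.51, adjusted p 0.00078), and Nipal1, a magnesium transporter, from 4.48, 6.72 and 8.41 to 0.475, 1.77 and 3.29 CPM (-1.71, adjusted p 0.00037).

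Of 24 atrophy and autophagy genes 6 fell and 0 rose (median -0.17), and 18 were not counted as changed. With 1 Hz replicates 4 and 6 left out, 4 were lower. On the TPM scale 0 were lower and 1, Txnip, was higher (median 0.02), with Foxo1 at -0.39 and Foxo3 at -0.34 there. Foxo1 went from 42.2, 45.3 and 51.1 to 24.6, 29.5 and 35.4 CPM (-0.64, SE 0.084, adjusted p 5e-06), and Foxo3 from 119, 131 and 145 to 76.8, 88.8 and 100.3 CPM (-0.56, SE 0.078, adjusted p 1.2e-05). Both forkhead factors were lower in every 10 Hz library. Fbxo30, a ubiquitin ligase linked to muscle loss, fell by 0.66 on the log2 scale (adjusted p 4.1e-05), Fbxo32 (atrogin-1) by 0.73 (adjusted p 0.0013), Klf15, a glucocorticoid-induced factor, by 0.88 (adjusted p 0.0072) and Irs2, an adaptor of the insulin receptor, by 1.22 (adjusted p 0.046). The calls of Klf15 (-0.65, adjusted p 0.062) and Irs2 (-1.20, adjusted p 0.11) were the ones lost without the pair of libraries.

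Of 22 p53 target genes 5 fell and 0 rose (median -0.24). Trp53inp1, which promotes p53-dependent arrest and autophagy, went from 142, 150.2 and 166 to 53.2, 70.0 and 81.1 CPM (-1.14, SE 0.11, adjusted p 5.9e-08). Fas, the death receptor, went from 11.7, 13.6 and 18.3 to 6.30, 6.91 and 9.01 CPM (-1.01, adjusted p 6.7e-06). Sesn1, a stress-induced inhibitor of growth signalling, fell by 0.50 (adjusted p 0.00018), close to the threshold, and Plk2 and Perp by 0.86 and 1.46 (adjusted p 0.0029 and 0.0037). Bcl2l11 (Bim), a pro-apoptotic protein of the Bcl-2 family, went from 21.7, 30.3 and 36.7 to 10.9, 13.7 and 17.6 CPM (-1.07, SE 0.13, adjusted p 1.1e-06). Trp53inp1, Fas, Sesn1 and Bcl2l11 had no overlap between the groups. Without 1 Hz replicates 4 and 6, 3 of the p53 targets were counted as lower, and Sesn1 (-0.42) and Perp (-0.65, adjusted p 0.13) were not.

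The letters GTAAACA, the core that FOXO factors can bind, stand in the start windows of 2 lower genes that are printed here because they show where such a match can lie, from RefSeq on build GRCm38.p6 with the match in capitals. For Bcl2l11 the window is chr2:128125788-128126087 and for Otud1, a deubiquitinase gene that fell from 99.3, 146 and 295 to 37.6, 55.4 and 95.8 CPM (-1.49, adjusted p 0.00015), it is chr2:19657481-19657780, both on the plus strand.
Bcl2l11: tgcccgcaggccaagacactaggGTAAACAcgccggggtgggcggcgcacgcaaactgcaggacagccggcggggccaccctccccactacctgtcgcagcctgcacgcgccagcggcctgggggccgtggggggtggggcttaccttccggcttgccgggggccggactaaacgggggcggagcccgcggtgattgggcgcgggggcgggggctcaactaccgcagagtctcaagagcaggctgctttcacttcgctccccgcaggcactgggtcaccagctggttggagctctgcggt
Otud1: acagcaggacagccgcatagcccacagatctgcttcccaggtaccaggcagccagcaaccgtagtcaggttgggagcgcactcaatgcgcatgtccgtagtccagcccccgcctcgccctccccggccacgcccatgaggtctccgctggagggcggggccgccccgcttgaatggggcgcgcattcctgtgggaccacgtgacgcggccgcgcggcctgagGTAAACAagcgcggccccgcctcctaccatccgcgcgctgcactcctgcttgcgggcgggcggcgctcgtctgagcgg
On either strand the letters occur in 3.65% of all windows, in 21 of 476 lower genes with a window (4.41%), in 16 of 595 higher genes (2.69%) and in 261 of 8820 not changed (2.96%). These shares are descriptions, and a match is not a site that was shown to be bound. Of the 87 named genes with a window, Bcl2l11, Mxi1, Nfatc3, Otud1 and Sesn1 hold the letters, and Nfatc3 is on the higher side.

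Immediate early genes, which are switched on within minutes of a stimulus and are short-lived, had the lowest median of the lists together with the mitochondrial genome (-0.39). Of 35 tested, 9 fell and Fosl1 rose. Besides Cited2, the list's lower genes were Nr4a1, Fosb, Egr3, Ier5, Dusp5, Btg2, Csrnp1 and Arc, at -1.35 to -0.59. Nr4a1 (Nur77), an orphan nuclear receptor induced by contraction, went from 40.4, 72.9 and 95.6 to 13.8, 25.9 and 42.3 CPM (-1.35, SE 0.24, adjusted p 0.00032), with overlap of 1 library of each group at about 40 CPM. Fosl1, an AP-1 subunit, was at 104.5, 131 and 161 CPM and at 165, 184 and 203 CPM (0.50, adjusted p 0.00061), without overlap. In the fit lacking 1 Hz replicates 4 and 6, the median was -0.34, with Cited2, Nr4a1 and Egr3 lower. Fosb, Ier5, Dusp5, Btg2, Csrnp1 and Arc kept values of -1.39 to -0.70 with an adjusted p of 0.07 to 0.16, Fosl1 was at 0.40, and Ier3 (0.53, adjusted p 0.035) was the 1 gene counted as higher.

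Clock genes differed as well, with 5 of 18 lower and 1 higher (median -0.15). Dbp, an output factor of the clock, had a narrow range at each frequency, with 60.9, 64.6 and 69.0 CPM at 1 Hz and 35.5, 39.6 and 42.4 CPM at 10 Hz (-0.72, SE 0.092, adjusted p 3.2e-06). Nr1d2 (REV-ERB beta), a repressor in the clock, went from 84.5, 94.8 and 114.8 to 41.7, 54.4 and 59.4 CPM (-0.92, adjusted p 3.7e-06), and Rora, which activates through the same elements, from 9.36, 10.7 and 11.9 to 6.37, 7.43 and 8.01 CPM (-0.56, adjusted p 0.0003). None of the 3 overlapped between the groups. Nr1d1 and Nfil3 fell too (-1.24 and -0.62, adjusted p 0.015 and 0.0019), and Hlf rose (0.69, adjusted p 0.035). The same number, 5, was lower without 1 Hz replicates 4 and 6, and Hlf was at 0.62 (adjusted p 0.13). The hour of RNA extraction is not given in the sources used here.

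**Figure D4:**
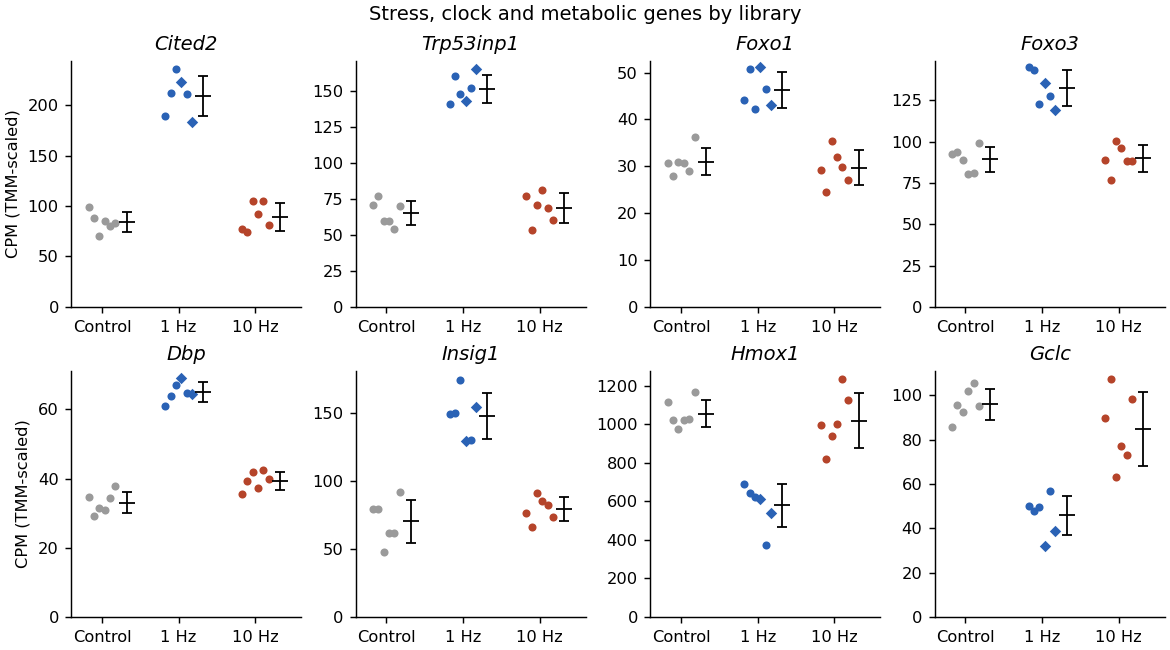
CPM by library, drawn as in the plot of muscle regulators (controls grey, 1 Hz blue with diamonds for replicates 4 and 6, 10 Hz red, mean and SD of 6 libraries), for 6 lower and 2 higher genes. Cited2, Trp53inp1, Foxo1, Foxo3, Dbp and Insig1 are high at 1 Hz, and Hmox1 and Gclc are low there, with no overlap between 1 Hz and 10 Hz in any of the 8 panels.

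Lipid and fuel metabolism held changes in both directions. Of 33 genes of sterol and fatty acid synthesis 5 fell and 0 rose (median -0.08, and -0.20 without 1 Hz replicates 4 and 6, with 4 lower and Idi1 at -0.46). Insig1, the sterol sensor that holds SREBP in the endoplasmic reticulum and is itself an SREBP target, went from 129, 149 and 174 to 66.1, 79.3 and 91.4 CPM (-0.90, SE 0.11, adjusted p 3.8e-06). Hmgcs1, an early enzyme of cholesterol synthesis, went from 249, 263 and 286 to 159, 177 and 214 CPM (-0.56, adjusted p 2.3e-05). Stard4, a cholesterol carrier, fell by 0.65 (adjusted p 1.8e-05), Msmo1 by 0.68 (adjusted p 3.8e-05) and Idi1 by 0.56 (adjusted p 0.0015). The groups did not overlap for Insig1, Hmgcs1 or Stard4.

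Among 27 genes of fatty acid oxidation 3 rose and 2 fell (median -0.16). Pdk4, the kinase that turns off pyruvate dehydrogenase when fat is burned, went from 91.8, 109.7 and 136 to 54.4, 69.5 and 75.8 CPM (-0.70, SE 0.098, adjusted p 1.1e-05), without overlap. Cd36, the fatty acid carrier, fell as well (-0.57, adjusted p 0.0029). Ucp3, an uncoupling protein of muscle mitochondria, went from 1.46, 2.21 and 3.67 to 3.58, 4.50 and 4.89 CPM (0.88, adjusted p 0.0014), with overlap, and Ucp2 and Angptl4 rose by 0.54 and 0.68 (adjusted p 0.0022 and 0.0097). Without 1 Hz replicates 4 and 6 the list had 1 higher and 2 lower: Ucp2 (0.39), Angptl4 (0.60, adjusted p 0.06) and Cd36 (-0.37, adjusted p 0.057) lost their calls, and Lpl, the lipoprotein lipase, was counted as lower (-0.58, adjusted p 0.0031). Plin2, which coats lipid droplets, was higher in every 10 Hz library by a log2(fold change) of 0.31 (adjusted p 0.0021), under the threshold.

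Glycolysis genes showed 0 higher and 1 lower of 25. Slc2a4 (GLUT4), the insulin-regulated glucose transporter, had a log2(fold change) of -0.58 (adjusted p 0.011), which was -0.32 (adjusted p 0.19) without 1 Hz replicates 4 and 6. Hk2, the hexokinase of muscle, was at 0.26 (adjusted p 0.017) and Pfkp, a phosphofructokinase, at -0.29 (adjusted p 0.0022), both under the threshold. Of 22 hypoxia genes 3 rose and 1 fell. Ddit4 (REDD1), an inhibitor of mTORC1, rose from 37.6, 75.6 and 108.4 to 123, 132 and 150.2 CPM (0.85, SE 0.18, adjusted p 0.0017), and Bhlhe40, a hypoxia and clock repressor, from 123, 243 and 256 to 308, 335 and 389 CPM (0.71, adjusted p 0.0033). Hilpda rose by 0.51 (adjusted p 0.031), and Bnip3, a mitophagy receptor, fell by 0.52 (adjusted p 0.011), which was -0.22 (adjusted p 0.23) without the pair.

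The antioxidant genes controlled by NRF2 included 4 higher and 0 lower of 24, and the list's median was 0.01. Hmox1 (heme oxygenase 1) went from 376, 616 and 692 to 823, 999 and 1234 CPM (0.81, SE 0.11, adjusted p 1.1e-05). Gclc, which catalyses the first step of glutathione synthesis, went from 32.1, 48.7 and 57.0 to 63.0, 83.5 and 107.1 CPM (0.89, SE 0.13, adjusted p 1.4e-05). G6pdx, the entry enzyme of the pentose phosphate pathway, rose by 0.88 (adjusted p 4.4e-06) and Slc7a11, the cystine importer, by 1.00 (adjusted p 0.0023). The same count, 4 higher and 0 lower, was found without 1 Hz replicates 4 and 6.

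Of the calcineurin and PGC-1 genes, which link calcium to slow-fibre and mitochondrial programmes, 2 of 21 rose and 1 fell. Esrrg, a nuclear receptor of oxidative fibres, fell from 5.09, 7.13 and 7.78 to 3.58, 4.01 and 5.25 CPM (-0.71, adjusted p 0.00057), with slight overlap. Ppargc1b, a relative of PGC-1 alpha, rose by 0.54 (adjusted p 0.013). Nfatc3, a calcineurin-responsive factor, rose by 0.61 (adjusted p 0.012) and was at 0.40 (adjusted p 0.088) without 1 Hz replicates 4 and 6.

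In the cell cycle list of 45 genes, 4 rose (E2f2, Cdc20, Cenpe and Mcm5) and Hmgb2, a chromatin protein, fell (-0.94, adjusted p 0.00038), with a median of 0.13. The share changed, 11.1%, was near the 10.8% over all genes tested. With 1 Hz replicates 4 and 6 left out, there were 2 higher and 1 lower, with Mcm5 at 0.55 (adjusted p 0.17) and Cenpe at 0.59 (adjusted p 0.13). Ccnd1 (cyclin D1) had a log2(fold change) of 0.47 (adjusted p 0.00065), just under the threshold, with 67.6, 78.2 and 98.7 CPM against 98.6, 113.7 and 125 CPM. Cdc20, an activator of mitotic exit, rose by 0.67 (adjusted p 0.00085).

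Signalling genes were mixed. Of 22 Notch and BMP genes 3 rose and 4 fell: Jag1, a Notch ligand, went from 23.2, 25.7 and 35.4 to 11.5, 15.02 and 17.1 CPM (-0.91, adjusted p 1.7e-05), and Hes1, a Notch target, from 22.7, 32.3 and 37.4 to 13.8, 16.7 and 21.9 CPM (-0.84, adjusted p 0.00015), both without overlap. Another Notch target, Heyl, moved the other way from 0, 0.844 and 1.85 to 1.55, 2.70 and 3.67 CPM (1.82, adjusted p 0.0019), with overlap, as did the ligand Dll1 (0.78, adjusted p 0.033). Id2 and Id3, which block the MyoD family from binding DNA, fell by 0.53 and 0.76 (adjusted p 0.0085 and 0.047), and the BMP antagonist Grem1 rose by 0.91 (adjusted p 0.0025). Without 1 Hz replicates 4 and 6 there were 3 higher and 3 lower, Id2 (-0.44) and Id3 (-0.77, adjusted p 0.091) no longer counting and the receptor Notch3 (-0.55, adjusted p 0.0019) doing so.

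YAP and TEAD targets, which respond to mechanical load and cell shape, had 4 lower and 1 higher of 16. Ccn2 (CTGF) went from 1058, 1369 and 1859 to 459, 650.2 and 873 CPM (-1.10, SE 0.17, adjusted p 4.5e-05) and Nuak2 from 32.2, 35.2 and 36.3 to 19.4, 23.6 and 26.2 CPM (-0.58, adjusted p 6.5e-06). The groups were separate for both. Ccn1 and F3 fell by 1.57 and 0.52 (adjusted p 0.024 and 0.014), and Ccn1 was at -1.55 (adjusted p 0.056) without 1 Hz replicates 4 and 6. Tead4, a DNA-binding partner of YAP that is active in myoblasts, rose from 28.4, 32.2 and 37.9 to 43.1, 57.4 and 63.7 CPM (0.75, SE 0.095, adjusted p 3e-06).

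Among 26 secreted factors and cytokines 2 rose and 5 fell. Il6, the interleukin that contracting muscle releases, went from 7.87, 11.7 and 17.5 to 1.43, 3.56 and 8.01 CPM (-1.55, SE 0.29, adjusted p 0.0005), with overlap of a single library on each side. Il15, a muscle-derived cytokine, went from 7.15, 10.6 and 14.4 to 2.61, 5.35 and 6.78 CPM (-1.15, adjusted p 0.00019), without overlap. Bdnf, Ptx3 and Ccl7 fell by 0.85, 0.87 and 0.83 (adjusted p 0.017, 0.011 and 0.048), while the growth factors Fgf2 and Gdf11 rose by 0.82 and 0.51 (adjusted p 0.0038 and 0.0043). The calls of Bdnf (-0.78, adjusted p 0.077) and Ccl7 (-0.54, adjusted p 0.31) were lost without 1 Hz replicates 4 and 6. Nampt, an enzyme of NAD synthesis that is also secreted, was lower in every 10 Hz library (-0.39, adjusted p 0.00025) without reaching the threshold. Of 39 extracellular matrix genes 1, Col1a1, rose (0.67, adjusted p 0.034). Without the pair it was at 0.53 (adjusted p 0.15), and Thbs1, which encodes thrombospondin 1, was the 1 gene called, as lower (-0.68, adjusted p 0.0044). Of 24 interferon response genes 1, the peptide transporter Tap1, fell (-0.75, adjusted p 0.0026).

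Lists of the protein and energy machinery moved with the libraries that stood apart. All 79 oxidative phosphorylation genes had a negative log2(fold change), with a median of -0.32, 14 lower and 0 higher, and without 1 Hz replicates 4 and 6 the median was -0.02 with 0 lower. All 78 ribosomal protein genes were negative too (median -0.34, 15 lower), and without that pair the median was -0.10 with 0 lower. The 13 genes of the mitochondrial genome had a median of -0.39 with none changed, and their median was 0.26 without the pair. Cox7a1, the muscle isoform of a cytochrome oxidase subunit, was at 10.5, 11.8 and 26.4 CPM and at 7.01, 8.71 and 10.8 CPM (-0.91, adjusted p 0.012), and at -0.36 (adjusted p 0.29) without the pair. Effective length moved with the result as well. In 5 equal bins of effective length the median log2(fold change) rose from -0.22 in the shortest to 0.10 in the longest. In the shortest bin 1.35% of genes were higher and 8.86% lower, and in the longest 10.0% and 3.68%. With each library's trend with length removed, oxidative phosphorylation had a median of -0.07 with 3 lower, ribosomal proteins -0.09 with 1 lower and the mitochondrial genome -0.16 with 0 lower.

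Protein folding and turnover genes moved little. All 20 ER chaperone genes were negative (median -0.27, and -0.18 without 1 Hz replicates 4 and 6) and 12 passed on p, but none passed the fold threshold. Hsp90b1 (GRP94) was at 1967, 2272 and 2626 CPM and at 1534, 1647 and 1973 CPM (-0.44, adjusted p 0.00033), and Edem1 and Xbp1 at -0.32 and -0.28 (adjusted p 0.00069 and 0.00088). Of 19 heat shock genes 0 changed, with the chaperonin Hspd1 at 0.36 (adjusted p 0.0014) and Hspa4 at 0.26 (adjusted p 0.0059). Of 29 ATF4 targets, which respond to amino acid shortage, Cebpg and Trib3 fell (-0.55 and -0.51, adjusted p 2.6e-05 and 0.002), and both lay under the fold threshold without 1 Hz replicates 4 and 6 (-0.43 and -0.44). None of 31 proteasome genes changed.

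**Figure D5:**
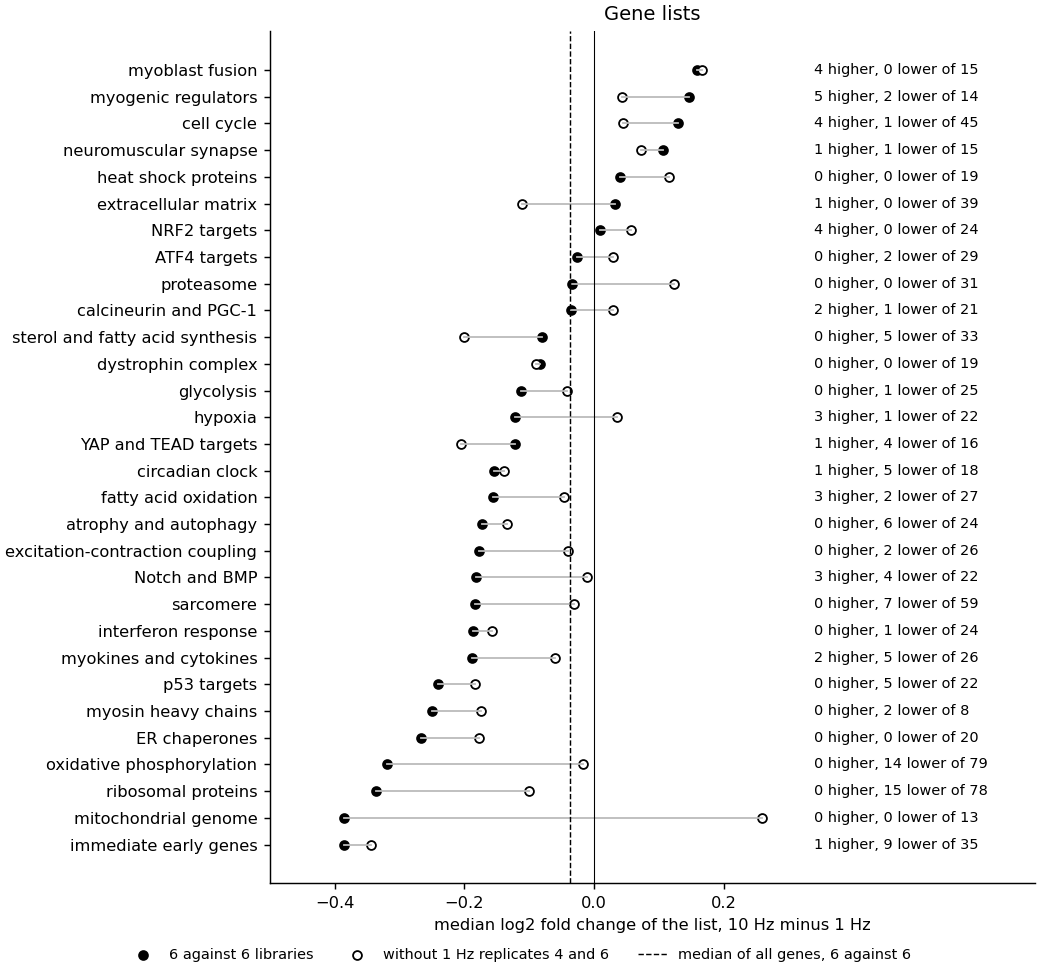
Median log2(fold change), 10 Hz minus 1 Hz, of the tested genes of each of 30 lists, with all libraries (filled circles) and without 1 Hz replicates 4 and 6 (open circles), and beside it how many genes of the list were higher or lower at 10 Hz of how many tested. Immediate early genes, ER chaperones and p53 targets keep a negative median in both, while oxidative phosphorylation goes from -0.32 to -0.02 and the mitochondrial genome from -0.39 to 0.26.

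Over all genes tested 10.8% changed. Of the lists, ATF4 targets (6.90%), interferon response (4.17%), glycolysis (4%) and the extracellular matrix (2.56%) were among those under that share. Over the 30 lists, 23 medians were negative on the TMM scale, and 13 of those were positive on the TPM scale, where the median of all genes was itself at 0.13. The medians of the calcineurin and PGC-1 list, the ATF4 targets and the proteasome lay above that value, and the other 10 did not. On that scale the sarcomere list had 0 lower and 1 higher, the sterol list 1 lower, the immediate early genes 4 lower and 2 higher, the p53 targets 4 lower, the clock genes 3 lower and 2 higher, and the NRF2 targets 8 higher and 0 lower.

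Relative to the unstimulated controls, the 1 Hz median was farther from 0 than the 10 Hz median in 23 of the 30 lists. The immediate early genes, for example, had medians of 0.49 at 1 Hz and 0.09 at 10 Hz, and the p53 targets 0.29 and -0.02. In the other 7 the 10 Hz median was the farther one, among them the myosin heavy chains (0.05 at 1 Hz and -0.15 at 10 Hz), the sarcomere (0.05 and -0.15), excitation-contraction coupling (0.04 and -0.11) and the extracellular matrix (0.01 and 0.11). These differences between medians were not tested. All genes tested had medians of 0.04 at 1 Hz and 0.01 at 10 Hz. The 1 Hz medians include replicates 4 and 6, and the count of 23 was not taken without them. Lists that moved with that pair, such as oxidative phosphorylation (0.29 at 1 Hz) and ribosomal proteins (0.41 at 1 Hz), are among the 23.

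The labelled cell type was checked on marker genes. The 10 myotube markers summed to 7977, 11019 and 14825 CPM at 1 Hz and 9010, 9380 and 11055 CPM at 10 Hz, ranges that overlap, and none of them changed. Of 9 tested markers of undifferentiated or reserve cells, Pax7 and Heyl rose and Myf5 and Spry1 fell, and the summed level of the list was 1534, 1733 and 1843 CPM against 1533, 1572 and 1617 CPM. Endothelial markers were nearly absent, at 0.553 CPM or less in sum at 1 Hz and 0.667 or less at 10 Hz, with Emcn at 0 in all 12 libraries. For macrophages the sum was 42.6 to 74.5 and 40.0 to 54.7 CPM with Adgre1 at 0, and for adipocytes 52.3 to 66.4 and 48.5 to 68.9 CPM with Retn at 0. Osteoblast or chondrocyte markers summed to 1124 to 1565 and 1081 to 1482 CPM with Ibsp at 0, and smooth muscle or myofibroblast markers to between 789 and 1100 and between 907 and 1157 CPM. The neuron or Schwann list, 2 of whose 6 genes were tested, summed to 37.4 to 51.1 CPM at 1 Hz and 80.2 to 109.7 CPM at 10 Hz without overlap. Most of that sum was Tubb3, a tubulin also used by differentiating muscle, at 43.6 and 89.7 CPM on average (1.04, adjusted p 2.4e-07).

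Libraries were made with a directional kit, but how counting used the strand is not stated, and 72 of the 124 genes named by rule overlap a listed gene on the opposite strand, so that a neighbour's reads may be among their counts. Myog, Myod1, Pax7, Myf5, Myf6, Ahdc1, Ubtf, Cdc42ep2, Cited2, Trp53inp1, Rnf19a, Bcl2l11, Foxo3, Nr1d2, Hmox1 and Gclc do not. Mef2a, Baiap2, Klf7, Sgms1, Foxo1, Dbp, Insig1, Hmgcs1, Ccn2, Tead4, Myh1, Myh2 and Myh4 do.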

How the data were processed

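The authors made the deposited tables with the nf-core/rnaseq pipeline on GRCm39 with Ensembl annotation, per their methods. The submitters' processing notes also name STAR, Salmon, BWA 0.7.12-r1039 and bedtools 2.25.0, with no role given. The deposited estimated counts are salmon's reads per gene, not normalized, 1 column per library. The deposited TPM values are the same estimates scaled by the authors for library total and transcript length. The strand setting of counting is not given in the sources used here.

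Estimated counts were rounded to whole numbers (6.15% of values were not whole). Low genes were removed with filterByExpr at its minimum count of 10 and minimum total of 15, libraries were scaled by TMM, and edgeR's (version 4.0.16, R 4.3.3) quasi-likelihood F test was fitted to all 24 libraries with the contrast 10 Hz minus 1 Hz. Total counts were between 8052369 and 18159144 in the 12 libraries compared. CPM of named genes are TMM-scaled. Single values (principal component, myosin shares) were tested with the exact permutation test of SciPy 1.17.1, two-sided. Alternatives were other scalings (DESeq2 1.42.0 size factors, upper quartile), other filters, DESeq2's Wald test with and without apeglm 1.24.0, limma 3.58.1 on log2(TPM + 1) and log2(TPM + 0.1), a fit of both groups alone, a replicate block and leaving out each library. The fits without 1 Hz replicates 4 and 6 and with length offsets (the trend with length removed in 20 bins) were chosen after seeing the data. The scripts were tested on simulated data.

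Named genes were the muscle regulators and myosin heavy chains, then, among changed genes without overlap and with a mean log2 CPM of at least 1, the 6 per direction with the smallest p and the 5 with the largest fold, leaving out predicted and unnamed genes, and up to 3 genes with the smallest p of every other list. Other genes are named as changed members of a list, in marker or quality lists, or where a result turned on them. Some genes that the rule names are not reported here. The comparison, lists and rules were chosen with earlier results of these data known. Gene positions are from GENCODE on GRCm39 (98.9% of identifiers matched), and start windows from RefSeq on GRCm38.p6, which 87 of the 124 named genes have. Replicate numbers did not pair the libraries.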

Additional observations from a re-analysis of the deposited data

Results flagged for a closer look

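In 8 of 268 groups of 6 libraries checked, 1 library stood apart from the others by Dixon's criterion, which chance alone does in about 1 in 20 groups. At 10 Hz, replicate 3 was the highest library for Kcnj2 (5.89 CPM), Mybph (1152 CPM), Myh4 (268.3 CPM) and Stard4 (54.4 CPM). Replicate 4 at 10 Hz was the lowest for Myog (438.2 CPM), still above every 1 Hz library. Replicate 5 at 10 Hz was the highest for the mitochondrial genes mt-Nd1 (1768 CPM) and mt-Nd2 (1299 CPM). At 1 Hz, replicate 5 was the highest for Tcf4 (84.9 CPM).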

How the results depend on the processing

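The 1443 changed genes became 945 without 1 Hz replicates 4 and 6, 936 with limma on log2(TPM + 1) with TMM factors, 3713 with no threshold on fold, and 1024 to 1849 on leaving out 1 library. Higher genes (779) became 1212 on log2(TPM + 1), 1345 on log2(TPM + 0.1), 1974 with no threshold on fold, and 631 to 1004 on leaving out 1 library. Lower genes (664) became 440 with no filter, 133 and 159 on those TPM scales, 345 on TPM with TMM factors, 355 without both libraries and 1739 with no threshold on fold. On leaving out 1 library they numbered 378 (without 1 Hz replicate 4) to 909 (without 1 Hz replicate 5), with 441 without 1 Hz replicate 6 and 435 without 10 Hz replicate 6. With the replicate block 1325 genes changed (767 higher, 558 lower), and same-numbered libraries had correlations of deviations of -0.33 to 0.06, with 0 of 6 libraries closest to their own number, so no pairing was assumed. The difference on the first principal component was 15.15 to 21.43 on leaving out 1 library. That of the Myh2 share was -1.486 to -0.9465 points and that of Myh3 4.393 to 6.634, the far end of each without 1 Hz replicate 3. The Myh8 share turned to -0.2717 on estimated counts and was -0.2392 to 0.5845 on leaving out 1 library. Eya4 turned to -0.0158 without both libraries and -0.0494 with length offsets, Myh8 to 0.0374 and 0.0384 on the TPM scales, and mt-Co2 to 0.5833 without both libraries. Tcf4 turned to 0.1685 and 0.1778 on those scales, 0.0172 with TMM factors on TPM, and was -0.0996 to 0.0282 on leaving out 1 library. Of 109 named genes with an adjusted p under 0.05, 72 stayed so with the same direction in all alternatives. The causes were not tested. Depth limits genes of a few CPM, such as Myf6 and Heyl.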
